A study of Mus musculus with 10 samples.

Results

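Genomic imprinting leaves a gene active on only the copy inherited from the mother or from the father. The paternally expressed genes Mest, Peg3, Peg10, Dlk1, Plagl1, Igf2 and Ndn and the maternally expressed genes Cdkn1c, H19 and Grb10 include several known for their part in growth before birth. Paternally expressed growth genes as a class tend to promote such growth, while maternally expressed ones tend to restrain it. In fat, Mest is known as a gene whose level follows the enlargement of adipocytes, and Dlk1 as a marker of preadipocytes. The arrays measure RNA and do not tell the parental copies apart.

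These 10 genes were chosen by symbol, and every probe set with exactly 1 annotated symbol that named a member was taken. This gave 26 probe sets for 9 genes, among 45037 probe sets and 18193 genes tested. No probe set named H19 alone, so H19 was not analysed here. The tissue was epididymal white fat, the pad attached to the epididymis, of male C57BL/6J mice that were 8 weeks old when the diets began and were fed for 8 weeks. The 5 mice of one group received a high-fat diet with 60% fat, and the 5 of the other received the CRF-1 normal chow. RNA of each mouse was hybridised to 1 Affymetrix array, and the p-values rest on the variation from mouse to mouse. The number of arrays limits the precision, and the median intensity of the arrays ran from 17.9 to 25.0 in the high-fat group and from 20.2 to 27.4 in the chow group. In bulk tissue, fewer cells of a type and less RNA per cell cannot be told apart.

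The chow arrays differed more from each other than the high-fat arrays did in the adipocyte, epididymis, testis and sperm, endothelial and macrophage marker means. The 6 stromal progenitor markers went the other way, with means of 8.50 to 9.61 on the high-fat diet and 8.43 to 8.79 on chow. Adipocyte markers were measured on all arrays, with Adipoq, the adiponectin gene, at 8353 to 9605 normalized intensity units on the high-fat diet and at 4376 to 9664 on chow. The mean log2 level of 6 adipocyte markers lay between 12.2 and 12.7 on the high-fat diet, against 11.3, 10.5, 11.8, 12.5 and 12.6 in chow arrays 1 to 5. The mean of 10 epididymis markers was 3.16 to 5.09 on the high-fat diet and 7.34 to 11.1 on chow, highest in chow array 2. The mean of 8 testis and sperm markers was 2.68 to 4.75 on the high-fat diet, against 7.55, 9.55, 6.97, 4.56 and 4.43 in chow arrays 1 to 5. The 8 endothelial markers averaged 8.56 to 9.09 on the high-fat diet, against 8.22, 7.42, 10.1, 9.61 and 9.76 in chow arrays 1 to 5. The 8 macrophage markers averaged 10.37 to 11.04 on the high-fat diet and 7.02 to 7.95 on chow. For the actin control, the signal of the 5′ probe set over that of the 3′ probe set, which reflects RNA and labelling quality, was 0.557 to 0.643 on the high-fat diet and 0.272 to 0.456 on chow. For the Gapdh control this ratio was 1.02 to 1.08 on the high-fat diet and 0.563 to 0.900 on chow. Neither ratio overlapped between the diets, so RNA and labelling quality cannot be told apart from diet. Because chow arrays 1 and 2 had the lowest endothelial and adipocyte means and chow array 2 the most epididymal signal, the members' results are also given without them. They were picked from values on these same arrays. Within chow they also had the lowest levels of Mest, Ndn, Igf2, Grb10, Peg3, Cdkn1c and Plagl1. Leaving them out thus favours a lower level on the high-fat diet, and the p-values of those fits are no independent test of diet.

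**Figure D1:**
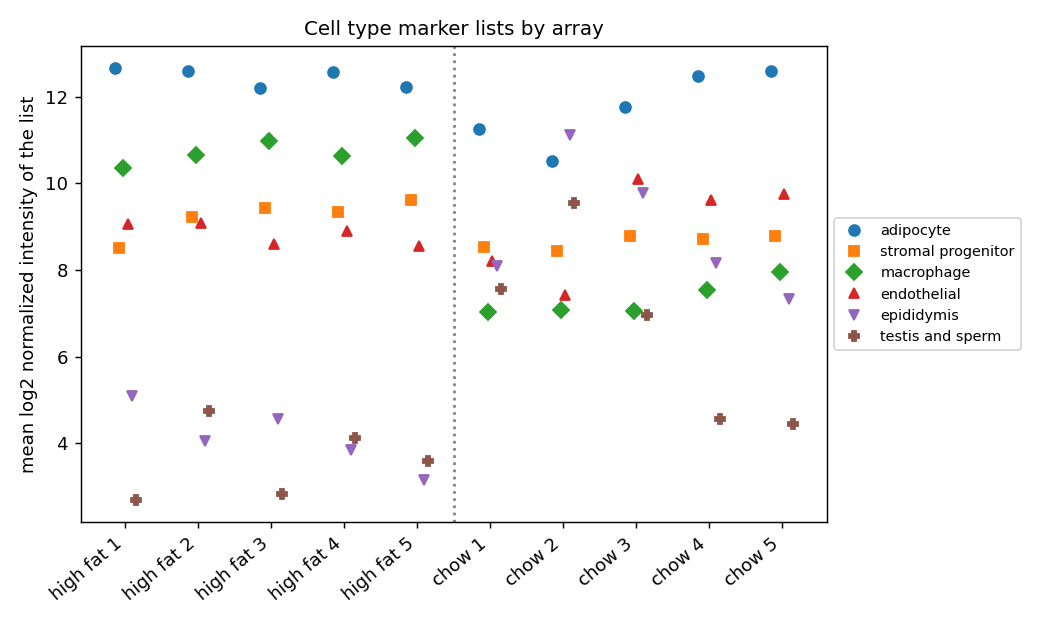
Mean log2 normalized intensity of 6 cell type marker lists (vertical axis) on each array (horizontal axis), with the high-fat arrays left of the dotted line and the chow arrays right of it. The epididymis means are 3.16 to 5.09 on the high-fat diet and 7.34 to 11.1 on chow, and the endothelial means of chow arrays 1 and 2 (8.22 and 7.42) lie below those of chow arrays 3 to 5.

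The promoters of 4 members that the results turn on are shown because imprinted genes are often controlled through CG dinucleotides, the sites of DNA methylation. Methylation was not measured here. Each sequence is the 250 bases before an annotated transcript start, 5′ to 3′, from RefSeq on GRCm38.p6, with every CG in capitals.
Mest, chr6:30737800-30738049, plus strand: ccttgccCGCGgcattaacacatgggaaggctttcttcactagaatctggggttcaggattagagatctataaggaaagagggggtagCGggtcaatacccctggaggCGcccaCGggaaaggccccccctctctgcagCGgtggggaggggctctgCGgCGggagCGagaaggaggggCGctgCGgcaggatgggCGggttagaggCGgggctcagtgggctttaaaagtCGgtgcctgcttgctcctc
Ndn, chr7:62348027-62348276, plus strand: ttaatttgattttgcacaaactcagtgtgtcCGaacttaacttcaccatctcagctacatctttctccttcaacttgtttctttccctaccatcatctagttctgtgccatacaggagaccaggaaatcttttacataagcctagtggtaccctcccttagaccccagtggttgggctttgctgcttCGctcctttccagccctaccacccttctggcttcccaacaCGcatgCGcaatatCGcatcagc
Peg3, chr7:6730420-6730669, minus strand: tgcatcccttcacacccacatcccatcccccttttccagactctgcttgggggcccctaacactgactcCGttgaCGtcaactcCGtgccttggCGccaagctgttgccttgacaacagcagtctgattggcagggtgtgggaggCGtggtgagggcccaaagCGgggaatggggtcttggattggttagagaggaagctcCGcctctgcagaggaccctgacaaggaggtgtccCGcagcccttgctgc
Grb10, chr11:12037421-12037670, minus strand: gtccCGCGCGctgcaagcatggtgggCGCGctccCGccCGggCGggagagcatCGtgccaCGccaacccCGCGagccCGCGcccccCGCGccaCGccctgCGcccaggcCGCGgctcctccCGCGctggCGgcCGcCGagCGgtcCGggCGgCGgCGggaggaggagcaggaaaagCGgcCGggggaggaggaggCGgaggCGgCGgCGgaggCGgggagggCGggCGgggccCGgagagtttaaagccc
The Grb10 window held 40 CG dinucleotides, a number reached by 1.31% of the 32851 windows of this length in the table. The Mest window held 14, reached by 29.4% of windows, the Peg3 window 8, reached by 43.0%, and the Ndn window 5, reached by 55.6%. These counts depend on the transcript start: a second annotated Grb10 start had 8 CG dinucleotides before it and another Mest start 7. The letters GGGGCCCC, a pattern known to be bound by the Plagl1 protein, were found in the Peg3 window and in none of the other 12 windows of members (both strands searched, with 13 windows in all for 7 members). GGGGCCCC occurred in 0.889% of all windows. A second pattern searched in the same way, GCCATNTT, was found in 0 of the 13 windows of members and in 3.91% of all windows.

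The first question was whether the diets differed in the members' RNA. Mest and Ndn were higher on the high-fat diet, Igf2 was lower, and the other 6 did not pass the threshold over all 10 arrays. Of the 9 genes, 3 passed at an adjusted p under 0.05 (limma, adjusted over all genes), where 25.9% of all genes passed, 12.9% upward and 13.1% downward. The median log2 difference, high fat minus chow, was -0.19 over the 9 members and -0.04 over all genes. With chow arrays 1 and 2 left out, 6 of the 9 passed, Ndn upward and Peg3, Plagl1, Cdkn1c, Igf2 and Grb10 downward, where 38.2% of all genes passed, 18.5% upward and 19.8% downward. Without chow arrays 1, 2 and 3 the same 6 passed in the same directions, where 34% of all genes passed, 16.6% upward and 17.4% downward. With the mean of the epididymis markers as a covariate none of the 9 passed (limma, 2 at an unadjusted p under 0.05), where 0.517% of all genes passed, 0.473% upward and 0.044% downward. In that fit 3081 of all 18193 genes had an unadjusted p under 0.05 (limma). The shares of genes passing in each direction depended on the scaling. Of all genes that passed, 49.6% were higher on the high-fat diet after quantile normalization, 64.8% for the values as deposited and 75.4% with arrays centred on their medians, and centring moved the median difference of all genes to 0.21.

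**Figure D2:**
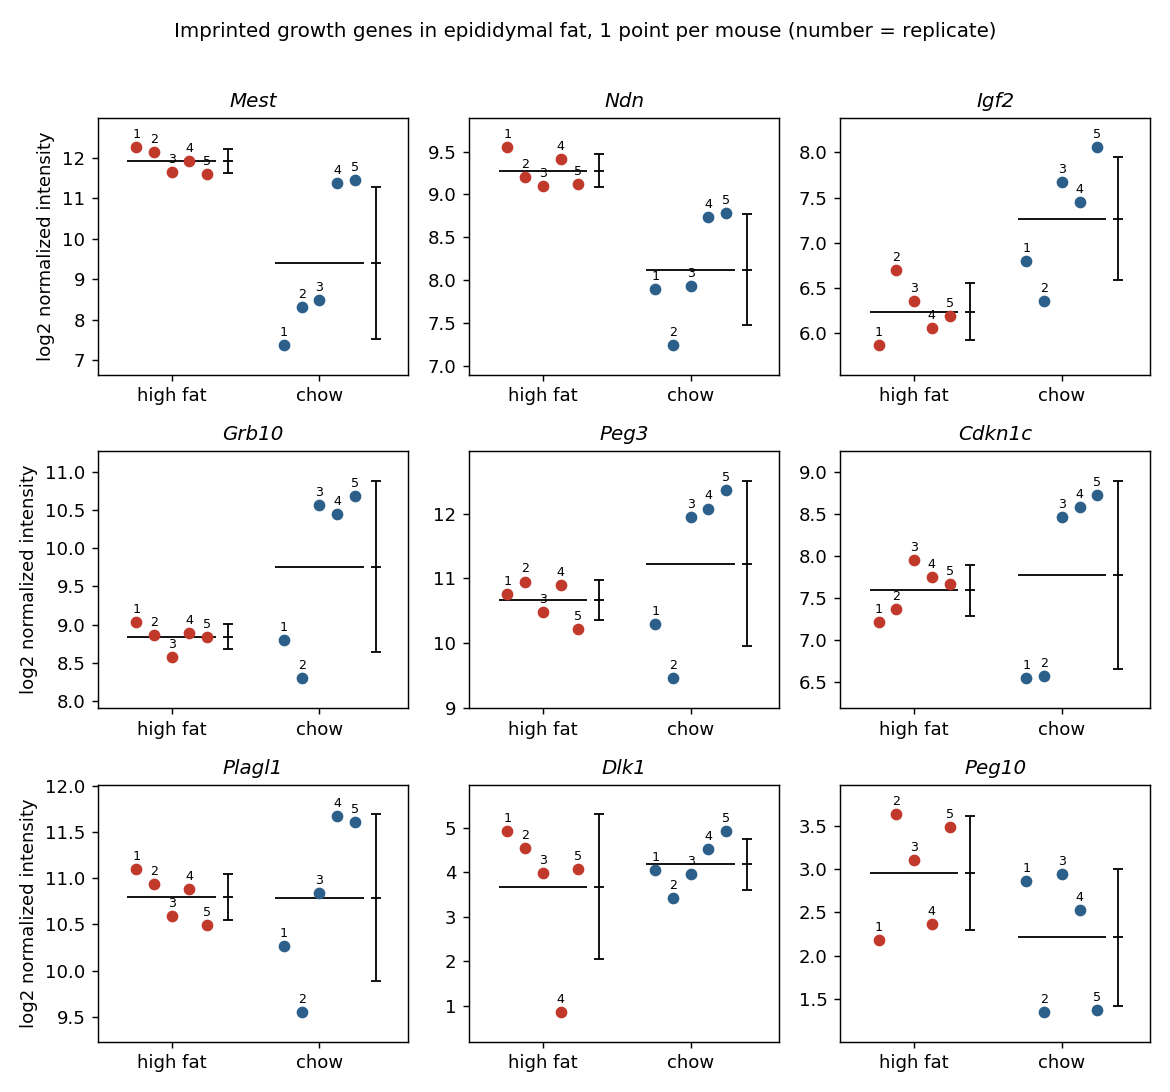
Log2 normalized intensity (vertical axis) of the brightest probe set of each of the 9 genes, 1 point per mouse labelled with its replicate number, high-fat mice left and chow mice right. Horizontal lines are group means and bars are SD (n = 5 each). Mest and Ndn show no overlap between the groups, and Grb10, Peg3 and Cdkn1c are higher in chow arrays 3 to 5 than in the other 7 arrays.

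Mest encodes a protein of the alpha/beta hydrolase family and is expressed from the paternal copy. Its only probe set gave 4882, 4493, 3225, 3871 and 3071 normalized intensity units in high-fat arrays 1 to 5, against 166, 319, 360.0, 2631 and 2796 in chow arrays 1 to 5. All high-fat arrays lay above all chow arrays, but chow arrays 4 and 5 were close to the high-fat range and chow arrays 1 to 3 were far below it. Mest rose by 2.51 in log2 units on the high-fat diet (SE 0.73, limma adjusted p = 0.0278), a 5.7-fold difference, and the 2-sided exact permutation p was 0.00794, the smallest that 5 arrays against 5 allow. The groups did not overlap for 22.5% of all genes. The log2 values averaged 11.91 ± 0.29 on the high-fat diet and 9.40 ± 1.88 on chow (SD, n = 5 each). The span from lowest to highest array was 0.67 in log2 units on the high-fat diet and 4.07 on chow, where the median spans over all genes were 0.66 and 1.38.

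The size of the Mest difference rested on the chow arrays that were kept. It was 1.47 without chow arrays 1 and 2 (SE 0.57, limma adjusted p = 0.0668) and 0.50 without chow arrays 1, 2 and 3 (SE 0.18, limma adjusted p = 0.0548), and in neither fit did it pass. The call was also lost without any single one of the high-fat arrays (limma adjusted p of 0.0614, 0.0625, 0.0533, 0.0579 and 0.0509 without arrays 1 to 5, with differences of 2.42 to 2.59) and without chow array 3 (2.28, limma adjusted p = 0.0678). The epididymis mean was higher in all chow arrays than in any high-fat array, and with that mean as a covariate the Mest difference was 0.15 (SE 1.66, limma adjusted p = 0.973). That covariate does not overlap between the diets, so diet and epididymal signal cannot be told apart in that fit. With Lep left out after its likeness to Mest was seen, the other 5 adipocyte markers averaged 12.15 to 12.66 in log2 level on the high-fat diet, against 12.10, 11.08, 12.64, 12.76 and 12.82 in chow arrays 1 to 5. The mean of these 5 in chow array 3 lay within their high-fat range, and in chow arrays 1 and 2 it lay below that range. With Lep counted, the mean of all 6 in chow array 3 was 11.8, below the high-fat range of 12.2 to 12.7. The part of adipocyte content in the Mest difference was not tested.

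The 5 genes most like Mest over the 10 arrays, by Pearson correlation of log2 level among 9095 other genes with a mean above the median, were Fads3, Lep, Slc6a13, Srpx2 and Sfrp5. Their correlations with Mest were 0.987, 0.984, 0.983, 0.983 and 0.979, and the rank correlations were 0.915, 0.976, 0.794, 0.952 and 0.939 (n = 10 arrays, which share the split between diets). Lep encodes the adipocyte hormone leptin, Sfrp5 a secreted Wnt antagonist, Slc6a13 a GABA transporter and Fads3 a member of the fatty acid desaturase family. Lep gave 6780, 6500, 5536, 6258 and 5695 units in high-fat arrays 1 to 5, against 134, 202, 167, 2103 and 2831 in chow arrays 1 to 5. Its chow arrays 4 and 5 were high and arrays 1 to 3 low, a division like that of Mest for which the gene was picked. Sfrp5 gave 1478 to 2212 units on the high-fat diet, against 37.5, 43.4, 42.6, 517 and 881 in chow arrays 1 to 5. Without chow arrays 1, 2 and 3 the differences were 1.33 for Lep, 1.44 for Sfrp5, 0.82 for Srpx2, 0.20 for Fads3 and -0.0010 for Slc6a13, beside 0.50 for Mest. Klf14, a transcription factor gene of the Mest imprinted domain, was higher on the high-fat diet by 2.39 (SE 0.60, limma adjusted p = 0.0137), whereas Copg2, which directly neighbours Mest in the RefSeq table, differed by 0.08 (SE 0.17, limma adjusted p = 0.772) over all arrays and by 0.35 without chow arrays 1 and 2 (limma adjusted p = 0.00921).

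**Figure D3:**
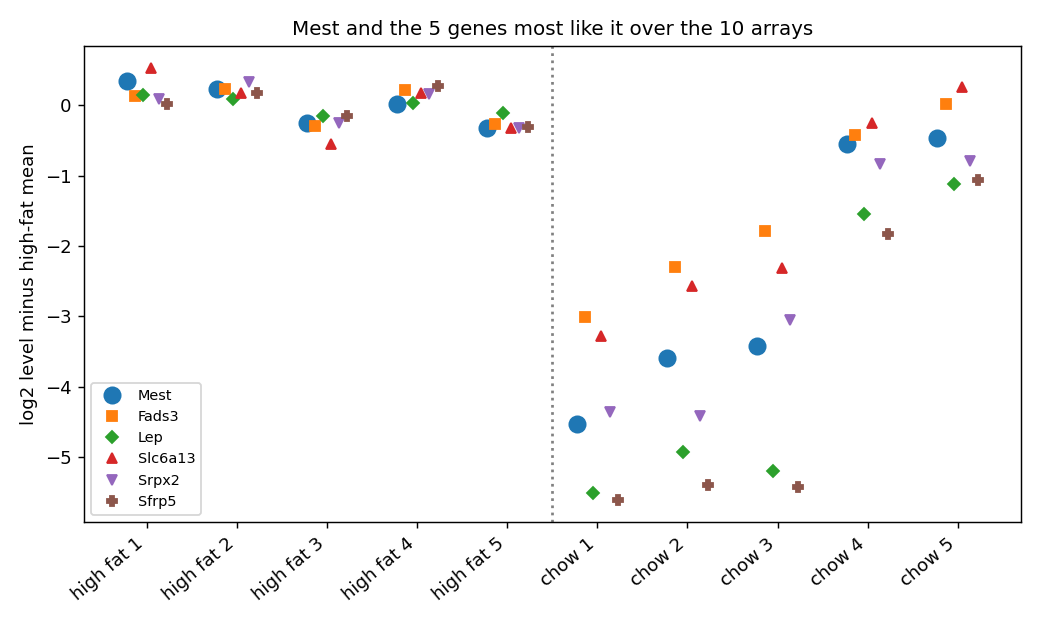
Log2 level minus the gene's high-fat mean (vertical axis) on each array (horizontal axis) for Mest, large circles, and the 5 genes most like it. The 5 genes were picked for their likeness to Mest, and all 6 are lower in chow arrays 1 to 3 than in chow arrays 4 and 5.

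Ndn encodes necdin, a growth-suppressing protein of the MAGE family that is paternally expressed. The brightest of its 8 probe sets gave 749, 589, 550.1, 684 and 557 units in high-fat arrays 1 to 5, against 238, 152, 244, 427 and 441 in chow arrays 1 to 5. All high-fat arrays lay above all chow arrays, and within chow the arrays 4 and 5 were again highest. Ndn rose by 1.16 on the log2 scale (SE 0.27, limma adjusted p = 0.00958), a 2.24-fold difference, from the log2 means 9.28 ± 0.20 on the high-fat diet and 8.12 ± 0.65 on chow (SD, n = 5 each). It was 0.79 without chow arrays 1 and 2 (SE 0.19, limma adjusted p = 0.00835) and 0.52 without chow arrays 1, 2 and 3 (SE 0.13, limma adjusted p = 0.0129), so it passed in both fits with less than 1 on the log2 scale. Chow arrays 1 to 3 were also the lowest for Ndn, so leaving them out lowers the difference by the choice itself. The call was lost with the mean of all 8 probe sets (0.78, limma adjusted p = 0.0782) and with the epididymis mean as a covariate (-0.13, limma adjusted p = 0.922).

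Of the 8 Ndn probe sets, 5 were brighter than the median probe set, and they gave like differences. They differed by 1.42, 1.16, 1.07, 0.96 and 0.94 on the log2 scale, and 4 of them passed in the fit over all probe sets (limma adjusted p of 0.0026, 0.0113, 0.0182 and 0.0469, and 0.0614 for the other). These 5 differed, without chow arrays 1 and 2, by 1.09, 0.79, 0.68, 0.50 and 0.46, and the first 3 passed (limma adjusted p of 0.000975, 0.0104 and 0.0287, against 0.0865 and 0.101). Over all arrays 17.9% of all probe sets passed, 9.89% upward and 8% downward, and the groups did not overlap for 16.7%. Without chow arrays 1 and 2, 28.3% passed, 14.3% upward and 14% downward. Of the 26 probe sets of the members, 5 passed upward and 1 downward over all arrays. The counts without chow arrays 1 and 2 were 3 and 7. The other 3 Ndn probe sets were dim and differed by 0.99, 0.13 and -0.42, or by 0.86, 0.20 and -0.76 without chow arrays 1 and 2, none past the threshold. Of the imprinted neighbours of Ndn, Magel2, another MAGE family gene, differed by 0.11 (SE 0.49, limma adjusted p = 0.894), and Mkrn3, a ubiquitin ligase gene, was lower by -1.89 (SE 0.51, limma adjusted p = 0.0191), or -0.55 on the log2(value + 16) scale, since it was dim.

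Igf2 encodes insulin-like growth factor 2, the paternally expressed growth factor of the fetus. Its brighter probe set gave 58.4, 104, 81.9, 66.5 and 73.1 units in high-fat arrays 1 to 5, against 112, 81.6, 204, 175 and 266 in chow arrays 1 to 5. The groups overlapped, because chow array 2 lay at the level of high-fat array 3 and below high-fat array 2. Igf2 was lower on the high-fat diet by -1.03 in log2 units (SE 0.31, limma adjusted p = 0.0305), or 2.05-fold. Without chow arrays 1 and 2 the difference was -1.49 (SE 0.20, limma adjusted p = 0.000288), and the remaining groups did not overlap, as for 39.9% of all genes. Igf2 no longer passed when the deposited values were used without normalization (-0.90, limma adjusted p = 0.0502), with arrays centred on their medians (-0.77, 0.0671), with the mean of both probe sets (-0.73, 0.193), with the replicate number as a block (-1.03, 0.0620) and with the epididymis covariate (-2.24, 0.149). It was also lost without high-fat array 1, 3, 4 or 5 (limma adjusted p of 0.0719, 0.0563, 0.0701 and 0.0644) and without chow array 3, 4 or 5 (0.0735, 0.0612 and 0.0568), with differences of -0.84 to -1.06. The other Igf2 probe set was dim, at the floor on 2 arrays, and its difference of -0.42, or -0.47 without chow arrays 1 and 2, did not pass (limma adjusted p of 0.678 and 0.691 in the fits over all probe sets).

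Grb10 encodes an adaptor that binds the insulin and IGF1 receptors and restrains their signal, and it is maternally expressed in most tissues. Its brightest probe set gave 526, 467, 382, 476 and 457 units in high-fat arrays 1 to 5, against 446, 315, 1513, 1398 and 1638 in chow arrays 1 to 5. Chow arrays 3 to 5 lay far above all high-fat arrays, and chow arrays 1 and 2 lay within or below the high-fat range. Over all arrays Grb10 differed by -0.91 (SE 0.44, limma adjusted p = 0.155) and did not pass. Without chow arrays 1 and 2 it fell by 1.72 on the log2 scale (SE 0.11, limma adjusted p = 3.01e-06), or 3.29-fold, and leaving out chow array 2 alone was enough for it to pass (-1.28, limma adjusted p = 0.0164). Leaving out its lowest chow arrays favours this direction. The second of its 3 probe sets gave -0.69 over all arrays and -1.33 without chow arrays 1 and 2 (limma adjusted p of 0.287 and 0.0027), and the third, which was dim, gave -0.51 and -0.70 and passed in neither.

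Peg3 encodes a large zinc finger protein expressed from the paternal copy. Its brightest probe set gave 1733, 1981, 1425, 1914 and 1187 units in high-fat arrays 1 to 5, against 1255, 700.0, 3965, 4338 and 5264 in chow arrays 1 to 5. As for Grb10, chow arrays 3 to 5 were above every high-fat array, and chow array 2 was the lowest of all 10. The difference was -0.57 over all arrays (SE 0.51, limma adjusted p = 0.463), and without chow arrays 1 and 2 Peg3 fell by 1.47 (SE 0.17, limma adjusted p = 0.000115), or 2.77-fold. In the fit over all probe sets without chow arrays 1 and 2, where 28.3% passed (14.3% upward and 14% downward), the 3 bright probe sets of Peg3 differed by -1.47, -1.66 and -1.64 and all passed. The other 2 Peg3 probe sets were at the floor on 8 and 7 of the arrays and carry no order. Zim1 and Usp29, which flank Peg3 in the RefSeq table, were dim and did not pass over all arrays (-1.33 and 0.14, limma adjusted p of 0.441 and 0.839). Zim1 was lower, as Peg3 was, without chow arrays 1 and 2 (-2.91, limma adjusted p = 0.0177), and Usp29 differed by 0.10 (limma adjusted p = 0.909).

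Cdkn1c encodes the cyclin-dependent kinase inhibitor p57, a brake on cell division expressed from the maternal copy. Its single probe set gave 148, 165, 248, 216 and 204 units in high-fat arrays 1 to 5, against 93.2, 94.8, 354, 384 and 423 in chow arrays 1 to 5. The chow values thus lay on both sides of the high-fat range, arrays 1 and 2 below it and arrays 3 to 5 above it. The difference was -0.19 over all arrays (SE 0.45, limma adjusted p = 0.805), and without chow arrays 1 and 2 Cdkn1c fell by 1.001 in log2 units (SE 0.16, limma adjusted p = 0.000830). Of 10 measured neighbours of Cdkn1c among the imprinted genes listed, 1 passed over all arrays, where 25.9% of all genes passed. The 1 that passed was Phlda2, a maternally expressed gene that limits placental growth, which was lower by -3.05 (SE 1.01, limma adjusted p = 0.0470), but it was dim and the difference was -1.02 on the log2(value + 16) scale. Phlda2 gave 3.75, 137, 31.1, 7.45 and 4.36 units in chow arrays 1 to 5. The groups overlapped, since high-fat array 3 had 5.92 units. Kcnq1ot1, the noncoding RNA gene of the domain, differed by -0.39 over all arrays (limma adjusted p = 0.561) and, like Cdkn1c, was lower without chow arrays 1 and 2 (-1.10, limma adjusted p = 0.000382).

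Plagl1 encodes a zinc finger transcription factor, also called Zac1, that is paternally expressed. Its brightest probe set, of a class that may match other transcripts, gave 2192, 1966, 1542, 1885 and 1438 units in high-fat arrays 1 to 5, against 1231, 749, 1832, 3278 and 3129 in chow arrays 1 to 5. Chow arrays 4 and 5 lay above the high-fat range, chow array 3 within it, and chow arrays 1 and 2 below it. The difference was 0.01 over all arrays (SE 0.37, limma adjusted p = 0.986). It was -0.58 without chow arrays 1 and 2 (SE 0.20, limma adjusted p = 0.0464, but 0.0573 in the fit over all probe sets) and -0.84 without chow arrays 1, 2 and 3 (SE 0.16, limma adjusted p = 0.00279). The other probe sets were dim and differed by 2.34 and -0.54 (limma adjusted p of 0.0950 and 0.436), or by 1.72 and -0.92 without chow arrays 1 and 2 (0.136 and 0.189), so the 3 probe sets of Plagl1 disagreed in direction. On the log2(value + 16) scale these 2 differed by 0.76 and -0.19 (limma adjusted p of 0.0495 and 0.347 over all probe sets). The first thus passed on that scale, and it was at the floor on 1 array.

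**Figure D4:**
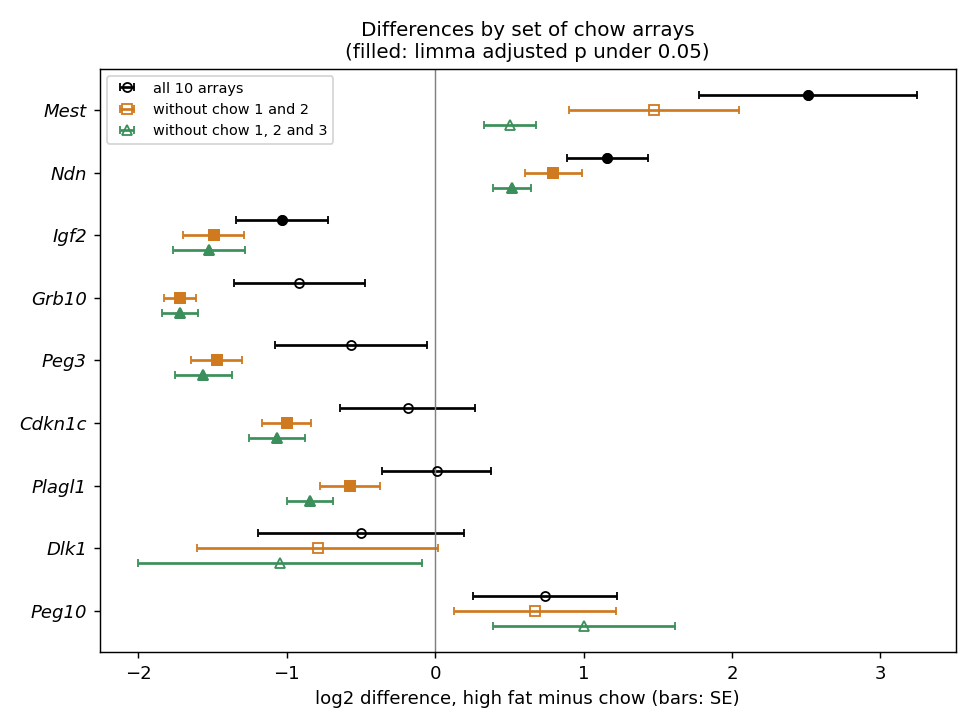
Log2 difference, high fat minus chow, with its SE (horizontal axis) for each of the 9 genes (vertical axis), over all arrays, without chow arrays 1 and 2, and without chow arrays 1, 2 and 3. Filled symbols passed at a limma adjusted p under 0.05. Grb10 moves from -0.91 to -1.72 and Peg3 from -0.57 to -1.47 when chow arrays 1 and 2 are left out, and Mest from 2.51 to 1.47.

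The endothelial markers divided the chow arrays as Peg3, Grb10 and Cdkn1c did, and they were not alone in this. The mean of the 5 adipocyte markers other than Lep was 12.10 and 11.08 in chow arrays 1 and 2. It was 12.64, 12.76 and 12.82 in chow arrays 3 to 5, against 12.15 to 12.66 on the high-fat diet. Of the 8 endothelial markers none passed over all arrays, and without chow arrays 1 and 2 all 8 were lower on the high-fat diet, a direction that leaving out the chow arrays with the lowest endothelial means favours. Among them were Kdr, the VEGF receptor 2 gene, at -1.76, Pecam1 at -1.20 and Cdh5, the VE-cadherin gene, at -0.77. Other lists also moved without these arrays: 6 of 7 smooth muscle and pericyte, 9 of 10 epididymis, 3 of 6 mesothelial and 3 of 8 testis and sperm markers were lower, 8 of 8 macrophage and 3 of 6 stromal progenitor markers were higher, and 1 of 6 adipocyte markers was higher and 1 lower. Of all genes, 18.5% were higher and 19.8% lower in that fit. The part of any of these cell types in the lower levels of Peg3, Grb10, Cdkn1c and Igf2 was not tested.

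Dlk1, the preadipocyte factor 1 gene, and Peg10, a retrotransposon-derived gene required in the placenta, were dim. The brighter Dlk1 probe set gave 30.3, 23.3, 15.8, 1.82 and 16.8 units in high-fat arrays 1 to 5, against 16.5, 10.7, 15.5, 22.8 and 30.4 in chow arrays 1 to 5. The groups overlapped, with high-fat array 4 alone far below the rest. Dlk1 differed by -0.50 (SE 0.70, limma adjusted p = 0.649), by 0.20 without high-fat array 4 (limma adjusted p = 0.749) and by -0.79 without chow arrays 1 and 2 (limma adjusted p = 0.497). The other Dlk1 probe set differed by 1.31, or 0.92 without chow arrays 1 and 2 (limma adjusted p of 0.183 and 0.398 over all probe sets). Rian, a noncoding RNA gene of the Dlk1 domain expressed from the maternal copy, was higher by 1.94 (SE 0.29, limma adjusted p = 0.000688), and the neighbouring noncoding RNA gene Meg3 differed by -0.0023 (SE 0.36, limma adjusted p = 0.997). Rian was singled out after its value was seen. Peg10 gave 4.52, 12.4, 8.62, 5.15 and 11.2 units in high-fat arrays 1 to 5, against 7.27, 2.55, 7.66, 5.77 and 2.60 in chow arrays 1 to 5, and it differed by 0.74 (SE 0.48, limma adjusted p = 0.298), or by 0.67 without chow arrays 1 and 2 (limma adjusted p = 0.379). Sgce, which directly neighbours Peg10, differed by 0.39 (SE 0.31, limma adjusted p = 0.400).

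Other imprinted genes moved in both directions. Of 42 further genes reported as imprinted in at least some mouse tissues, 7 rose on the high-fat diet and 5 fell, or 28.6%, close to the 25.9% of all genes, with a median difference of 0.09. The largest rises were those of Slc22a2, an organic cation transporter gene (3.06), Asb4 (3.05), Tfpi2, a protease inhibitor gene (2.45), and Klf14. The largest falls were those of Slc38a4, an amino acid transporter gene (-4.24), Phlda2, Mkrn3 and Rasgrf1, a Ras exchange factor gene (-1.74). Slc22a2 and Asb4 were dim on chow and differed by 1.57 and 1.504 on the log2(value + 16) scale. Without chow arrays 1 and 2, 10 were higher and 8 lower, where 18.5% of all genes were higher and 19.8% lower, and Rasgrf1 did not pass (-1.04, limma adjusted p = 0.106).

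Partners of Igf2 and Grb10 in growth factor signalling passed at a share near that of all genes. Of 19 genes, 2 were higher and 4 lower (31.6%, beside 25.9% of all genes), with a median difference of -0.16. The counts without chow arrays 1 and 2 were 2 and 9, where 18.5% of all genes were higher and 19.8% lower. Igf1r, the receptor through which Igf2 acts, was lower by -1.73 (SE 0.33, limma adjusted p = 0.00341) and Insr, the insulin receptor gene, by -1.16 (SE 0.23, limma adjusted p = 0.00407). Within chow, Insr was lowest in arrays 1 and 2 (641 and 472 units), and Igf1r was highest there (352 and 793 units). Leaving these arrays out thus favours a fall for genes like Insr. Igf2r, the maternally expressed receptor that clears Igf2, was higher by 1.08 (SE 0.20, limma adjusted p = 0.00249), and Grb14, the adaptor gene related to Grb10, by 1.26 (SE 0.33, limma adjusted p = 0.0177). The binding protein genes Igfbp2 and Igfbp1 were lower by -3.25 and -3.52, and Igfbp1, which was dim, by -1.80 on the log2(value + 16) scale.

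Of 7 further genes named as cyclin-dependent kinase inhibitors, the family of Cdkn1c in the cell cycle, 5 were higher and 1 lower (85.7%, beside 25.9% of all genes), with a median difference of 0.96. Without chow arrays 1 and 2, where 38.2% of all genes passed, 5 and 1 also passed, not all of them the same genes. Cdkn2b (1.61), Cdkn2c (0.96), Cdkn2a (2.95) and Cdkn3 (1.99), a phosphatase gene, were among those higher, and Cdkn1b, the p27 gene closest in kind to Cdkn1c, was lower by -0.76 (limma adjusted p = 0.0360) but did not pass without chow arrays 1 and 2 (-0.46, limma adjusted p = 0.0600). Cdkn2a was dim, with 0.76 as its difference in log2(value + 16). Macrophage markers were higher on the same 5 high-fat arrays, all 8 past the threshold, and their part in these rises was not tested.

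Among 19 genes of Dlk1 and Notch signalling and of adipocyte formation, 1 was higher and 4 lower (26.3%, beside 25.9% of all genes), with a median difference of 0.01. Adam17, the protease that releases Dlk1 from the cell surface, was higher by 1.24, and Notch1 was lower by -0.98. Gata2 and Gata3, factors that hold back adipocyte formation, were lower by -1.34 and -4.05, and Sox9 by -1.43. Gata3 was highest in chow arrays 1 and 2 (790 and 269 units, against 77.7 or less on every other array), and without them it was lower by -2.48 (limma adjusted p = 0.0494). The counts without chow arrays 1 and 2 were 1 higher and 11 lower, where 18.5% of all genes were higher and 19.8% lower, and Pparg, the central factor of adipocyte formation, which differed by 0.11 over all arrays (limma adjusted p = 0.920), was lower by -0.96 (limma adjusted p = 0.00113). Within chow, Pparg was lowest in arrays 1 and 2 (414 and 162 units, against 1604, 1715 and 1626 in arrays 3 to 5). Leaving these out favours a fall for Pparg, as for Cebpa, Klf4 and Notch4, which were also lowest there.

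Of 9 genes tied to fat pad expansion, 5 were higher and none lower (55.6%, beside 25.9% of all genes), with a median difference of 0.84. The counts were the same without chow arrays 1 and 2, where 38.2% of all genes passed. Besides Lep (3.66) and Sfrp5 (3.87) these included Npr3, a natriuretic peptide receptor gene (2.35), and Fgf1 (1.14). This list was chosen with earlier results on these arrays known, so its direction is not independent of them.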

How the data were processed

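RNA of 10 epididymal fat pads was measured on Affymetrix arrays, 1 per mouse. Per the labels' protocols, each mouse's RNA was copied into biotin-labelled cRNA. The deposited table holds 1 linear intensity per probe set and array for 45101 probe sets, and no source used here gives the authors' summary algorithm or scaling. Groups and replicate numbers came from the sample titles.

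Values under 0.658, the percentile 5 of the whole table, were set to it, and log2 was taken. Array medians then differed by 0.613, over a limit of 0.5, so the arrays were quantile normalized. The text prints levels as these values turned back to the linear scale (normalized intensity) and differences on the log2 scale. Symbols came from the platform annotation, updated through RefSeq gene IDs (34958 probe sets had 1 symbol, 932 several and 9211 none). The 64 control probe sets were left out. Each gene was represented by the probe set with the highest mean. Dim means a mean log2 level below 4.39, the median over probe sets. For several dim genes the difference of log2(value + 16) is also given.

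The test over genes was limma (version 3.58.1, R 4.3.3: lmFit, eBayes with a trend, Benjamini-Hochberg over all 18193 genes, threshold 0.05), and probe sets likewise over 45037. Lists are described by counts, with no set test. Named are all members, for each list up to 4 genes per direction, taken by size of change among those that passed and filled to 2 by the smallest p, marker genes where a sentence needs them, and the 5 genes most like Mest. The members and lists were chosen with earlier results of these data known. Alternatives were other scalings, floors, variance priors and probe set choices, array weights, a filter on dim genes, the replicate number as a block, arrays left out, and the epididymis marker mean as a covariate.

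The test was tried on simulated arrays modelled on the high-fat against chow comparison over 18193 genes: 45% of 100 changes of 1 on the log2 scale and 88% of 100 changes of 2 were recovered, with 8 false calls among 141.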

Additional observations from a re-analysis of the deposited data

Results flagged for a closer look

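Dlk1 in high-fat array 4 stood apart from its group, with 1.82 normalized intensity units where the nearest other high-fat array had 15.8. The gap divided by the range of the group on the log2 scale was 0.768, above Dixon's critical value of 0.710 for 5 samples. It was the only one of 18 groups of 5 examined for the 9 genes, and chance alone flags about 1 group in 20. Dlk1 is dim, and on the log2(value + 16) scale its difference was -0.11 (limma adjusted p = 0.789).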

How the results depend on the processing

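The number of members that passed, 3 over all arrays, was 6 without chow arrays 1 and 2, 6 without chow arrays 1, 2 and 3, 5 with array weights (where 35.1% of all genes passed), 1 with the mean of all probe sets of a gene (21.3%) and 0 with the epididymis mean as a covariate (limma, where 2 of the 9, and 3081 of all 18193 genes, had an unadjusted p under 0.05), and it ran from 1 to 4 with single arrays left out. Mest kept its direction under all 24 alternatives, with differences of 2.004 to 3.02 when single arrays were left out, 1.47 without chow arrays 1 and 2, 0.50 without chow arrays 1, 2 and 3, and 0.15 with the covariate. Of all genes 4717 passed, against 94 with the covariate, and of all probe sets 8057 passed, against 142 with the covariate and 12723 without chow arrays 1 and 2. Single arrays left out gave 3652 to 5577 genes and 5915 to 10000 probe sets. Directions turned for Cdkn1c (0.023 as deposited, 0.16 with arrays centred on their medians, -0.49 to 0.051 with single arrays left out), Dlk1 (0.41 with the mean of its probe sets, 1.31 with the probe set used when those that may match other transcripts were left out, -0.81 to 0.20 with single arrays left out), Plagl1 (-0.39 with array weights, -0.58 and -0.84 without chow arrays 1 and 2 or 1 to 3, -1.55 with the covariate, -0.30 to 0.23 with single arrays left out), Peg10 (-0.0073 with the covariate) and Ndn (-0.13 with the covariate). The causes were not tested. Same-numbered arrays of the groups did not deviate together (correlations of -0.012 to 0.011), and a fit with replicate number as block gave 3762 genes and 2 members past the threshold, Mest with a limma adjusted p of 0.0485. Signal over background limits Dlk1 and Peg10.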

Other observations

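Genes of enzymes and factors that set, keep or remove DNA methylation, together with a few that act on histones or chromatin, moved in both directions. Of 15 such genes, 6 rose and 2 fell on the high-fat diet (53.3%, limma, against 25.9% of all genes), with a median difference of 0.26. Without chow arrays 1 and 2 the counts were 6 and 5, where 18.5% of all genes were higher and 19.8% lower. Dppa3, which protects methylation in the early embryo, was higher by 2.998, Dnmt3l by 2.40, Uhrf1, which guides the maintenance methyltransferase, by 2.04, and the de novo methyltransferase gene Dnmt3a by 1.12. Dppa3 gave 64.6, 65.4, 121, 90.2 and 137 units in high-fat arrays 1 to 5, against 11.2, 13.2, 9.89, 11.2 and 11.9 in chow arrays 1 to 5, so the groups did not overlap. Dnmt3l was dim on chow and differed by 1.17 on the log2(value + 16) scale. Trim28, a corepressor gene, and Ctcf, which encodes the insulator protein, were lower by -0.82 and -0.42. Macrophage markers were higher on the same high-fat arrays, and their part was not tested.

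Of 8 genes linked to Plagl1 and Peg3, E2f1, a cell cycle factor gene, was higher by 2.30 and Siah1a, a ubiquitin ligase gene, was lower by -0.76 (25.0%, beside 25.9% of all genes), with a median difference of 0.06. Of the remaining marker lists, 1 of 6 adipocyte and 2 of 6 stromal progenitor markers were higher, 5 of 7 smooth muscle and pericyte, 2 of 6 mesothelial, 7 of 10 epididymis and 3 of 8 testis and sperm markers were lower, and 0 of 5 skeletal muscle markers passed (limma).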
